A study of Homo sapiens with 4 samples.

Results

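The genes described here are 40 genes of the unfolded protein response and the integrated stress response, given as a fixed list of symbols. Each YTHDF2 RNA immunoprecipitation (RIP) peak was given to the gene named in its exon or intron annotation, or else to the gene whose span held the summit. Of the 40 genes, 32 held at least 1 peak, and together they held 51 of the 14858 peaks in the list. The list as a whole placed peaks in 7903 genes, of which 6955 were protein-coding. All libraries came from HCCLM3, a metastatic human hepatocellular carcinoma cell line labelled as wild type, with no treatment or added allele named. The 2 groups were RNA pulled down with an antibody to YTHDF2 (2 libraries) and input RNA (2 libraries). There was no control pulldown among them, and the processed data were 1 combined list of peaks. No value per library could be given, and the sequencing depth and the spread between replicates are unknown.

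The unfolded protein response is set off when misfolded proteins build up in the endoplasmic reticulum (ER). Sensors in the ER membrane, PERK (gene EIF2AK3), IRE1 (ERN1) and ATF6, raise the production of chaperones, disulfide isomerases and the machinery that sends misfolded proteins to the proteasome. The integrated stress response starts from kinases that phosphorylate the translation factor eIF2, which lowers overall protein synthesis while letting ATF4 and its target DDIT3 (CHOP) be made. Liver cells secrete large amounts of plasma protein and depend on this folding system. YTHDF2 is a cytosolic protein that binds N6-methyladenosine in RNA and is best known for speeding the decay of the bound transcript.

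Each peak carries the authors' fold enrichment of RIP over the caller's background, and the caller's p and q. That background is a scaled input level, at the summit or averaged over a wider stretch around it, or the genome-wide level. Which of these a peak had is not given, so backgrounds of different peaks may differ in kind. A whole number of RIP fragments at the summit, and the background set against it, follow from the fold and the p. The interval printed after a fold is the exact Poisson 95% interval of the RIP fragments with the background held fixed. It takes in the counting error of the RIP fragments alone, and that of the background is left out. No molecular identifiers are named in the labels, and how PCR copies were treated is not stated. Copies may count as separate fragments, or their removal may hold high counts down, and which of these applies is not known. A peak is said to have passed when its q was 0.01 or less. Presence in the list is a weaker criterion, because the list also held peaks with a −log10 q of 0. The exon peak of PDIA4, for instance, had a −log10 p of 1.60 and a −log10 q of 0. Counts of genes with a peak take in such peaks and are not counts of significant enrichment. HCCLM3 is a bulk culture, so many cells with little bound RNA and few cells with much of it cannot be told apart.

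Of the 40 genes, 22 had a peak that passed, 10 had peaks of which none passed, and 8 had no peak. In the whole list 53.2% of the protein-coding genes with a peak had one that passed, and of all protein-coding genes, whatever their expression, 34.7% had a peak and 18.4% one that passed. By peaks, 33 of 51 passed, against 37.3% of all peaks. The genes without a peak were ATF6, ATF6B, ATF5, SESN2, ASNS, MANF, SDF2L1 and PDIA6. A peak list gives no level for such a gene, and which of them were expressed is not known from it. The median best-peak fold of the 32 genes, taking the peak of highest fold in each, was 2.18, and the values ran from 1.27 to 4.28. The same median over all protein-coding genes with a peak was 2.61.

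Most peaks of these genes lay in RNA with many fragments in input as well as in RIP. They had a median of 105 RIP fragments over a background of 57.8, against 12 fragments over 3.0 for all peaks. Only 2 of the 51 peaks rested on 4 or fewer fragments, against 34.2% of the list. Folds have to be read beside this difference. The lowest fold in the list was 1.52 at a background under 10, 1.23 at 10 to under 50 and 1.15 at 50 or more. Among peaks with a background of 50 or more, the median fold was 1.70 for the 28 peaks of these genes and 1.71 for all 2205. Among peaks with a background of 10 to under 50 it was 1.95 for 18 peaks and 2.08 for all 3738. The share that passed was 75% against 73.1% at the first of these levels and 55.6% against 62.0% at the second. A background under 10 was found for only 5 peaks of these genes and for 8915 of all. There the median fold was 2.85 against 2.61, and 40% passed against 18.1%. Over all peaks, whatever their background, the medians were 1.86 and 2.41, and no test was made of any of these differences.

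**Figure D1:**
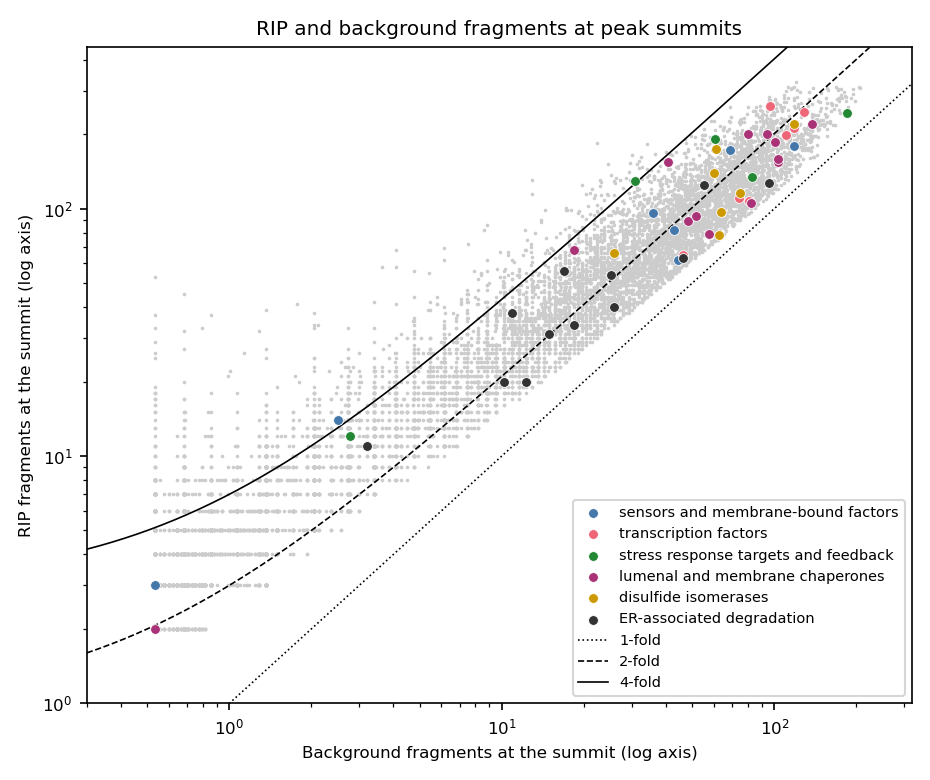
RIP fragments (vertical, log axis) against background fragments (horizontal, log axis) at each summit, with all 14858 peaks in grey, the 51 peaks of the stress response genes coloured by role, and lines at 1-fold, 2-fold and 4-fold. Most coloured points sit at the high end of both axes, where the median fold is lower; 28 of them have a background of 50 or more.

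A DNA element shared by part of the group was looked for in the RefSeq promoters (250 bases before to 50 after each start, GRCh38.p14), which were matched for 37 of the 40 genes. The ER stress response element (ERSE) is bound by ATF6 together with NF-Y and was searched on both strands as CCAAT followed by CCACG with 9 bases of any kind between them. It contains the CCAAT box, which 29 of the 37 genes and 42.1% of protein-coding genes with a promoter held. Both the ERSE and the gene list were chosen for their part in this response, so the shares below are a description only. The ERSE was found in 6 of the 37 genes and in 0.133% of protein-coding genes with a promoter (21 of 15843), or 0.0769% of all promoters. Its 7 copies read as follows from 5′ to 3′ on the motif's own strand, with the 2 fixed blocks in capitals, the 9-letter spacer and 5 flanking bases in lower case.
HSPA5: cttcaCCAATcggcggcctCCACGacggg
HSP90B1, distal: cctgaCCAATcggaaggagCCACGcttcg
HSP90B1, proximal: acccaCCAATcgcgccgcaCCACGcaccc
CALR: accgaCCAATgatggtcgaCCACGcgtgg
CANX: cccggCCAATcttcacactCCACGaagaa
PDIA6: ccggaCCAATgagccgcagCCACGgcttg
XBP1: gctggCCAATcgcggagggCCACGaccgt

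These copies lay at chr9:125241391-125241409 for HSPA5 (gene on the minus strand), at chr12:103930216-103930234 and chr12:103930321-103930339 for HSP90B1 (plus), and at chr19:12938384-12938402 for CALR (plus). Those of CANX (plus), PDIA6 (minus) and XBP1 (minus) lay at chr5:179698778-179698796, chr2:10812853-10812871 and chr22:28800603-28800621. The copies of CANX and PDIA6 lay before an alternative start inside the gene. The CALR copy and the proximal HSP90B1 copy were on the strand opposite to the gene. The 6 genes that shared this element did not share a RIP result. CALR and HSP90B1 had best peaks of 3.73-fold and 3.55-fold, CANX and HSPA5 of 1.78-fold and 1.60-fold, XBP1 a peak that did not pass, and PDIA6 no peak.

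Other elements were rarer in the group. TTGCATCA, the core of the element that ATF4 binds with C/EBP partners, was in the promoters of CEBPG, CHAC1 and HERPUD1. It was in 0.903% of protein-coding genes with a promoter and in 0.866% of all promoters. The longer form TGATGCAAT, which overlaps the reverse complement of TTGCATCA, was in none of the 37 genes. It was in 0.221% of protein-coding genes with a promoter and in 0.237% of all promoters. TGACGTGG, bound by ATF6 and XBP1, was in HYOU1 and VCP, in 1.05% of protein-coding genes with a promoter and in 0.729% of all promoters. A match to these letters is a description of the window and no evidence of binding.

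Among the sensors and membrane-bound factors, 3 of 6 genes had a peak that passed. EIF2AK3 encodes PERK, the ER-resident eIF2 kinase, and had the highest fold of the 40 genes. Its only peak lay in exon 12 of 17 (chr2:88576334-88576679), with 14 RIP fragments over a background of 2.51. The fold of 4.28 (2.47 to 6.99) had a −log10 q of 4.13, and the width of the interval comes from the small number of fragments. EIF2AK1, the heme-regulated eIF2 kinase HRI, was covered far more deeply, with 3 peaks. The peak in exon 9 of 15 (chr7:6040664-6040985) had 2.50-fold (2.14 to 2.90) over 173 fragments and a −log10 q of 21.6. The 3' UTR peak (chr7:6023588-6024194) had 1.52-fold (1.3 to 1.76) over 179 fragments and a −log10 q of 4.23. Both passed, and their intervals did not overlap. The third, classed as promoter of a neighbouring gene, had 1.39-fold and did not pass. The 3' UTR peak also overlapped the end of AIMP2, although its summit lay outside that gene.

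CREB3, an ER-membrane transcription factor related to ATF6, had 2 peaks that passed. That in the 3' UTR (chr9:35736680-35737047) had 2.62-fold (2.13 to 3.20) over 96 fragments and a −log10 q of 12.8. That near the start of the gene (chr9:35733228-35733747) had 1.89-fold (1.51 to 2.35) over 82 fragments. The intervals of this pair overlapped, and the 3' UTR peak reached into the neighbouring gene GBA2. ERN1, the IRE1 kinase and RNase, had a peak of only 3 fragments in exon 5 of 22 (2.61-fold, 1.06 to 6.37) that did not pass. Of the canonical ER sensors, PERK was thus the only one with a peak that passed, while ATF6 and its paralog ATF6B had none in the list.

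Of 7 transcription factors, 4 passed. DDIT3, which encodes CHOP, the factor tied to cell death in prolonged stress, had the highest −log10 q of the 40 genes at 37.5, rank 105 of the 14858 peaks. Its peak (chr12:57516433-57517113) had 2.67-fold (2.36 to 3.02) with 260 RIP fragments over a background of 96.6, the most fragments of any peak in the group. The summit lay 162 bp from the 3' end of DDIT3, in its last part, although the list classed the peak as promoter under the microRNA gene MIR616. The peak also covered the last bases of MARS1, and reads of overlapping genes cannot be told apart in a list without strand.

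ATF4, the central transcription factor of the integrated stress response, had 1.91-fold (1.68 to 2.16) at chr22:39522018-39522814. There were 246 fragments over a background of 128, and the −log10 q was 16.0. CEBPB and CEBPG are C/EBP factors that pair with ATF4. CEBPB had 1.79-fold (1.56 to 2.04) over 211 fragments at chr20:50191760-50192800, with the summit inside the antisense gene CEBPB-AS1 as well. CEBPG had a 3' UTR peak of 1.79-fold (1.55 to 2.06) over 198 fragments at chr19:33379408-33380078. A second 3' UTR peak of CEBPG, nearer the gene end, had 1.40-fold (1.08 to 1.78) and did not pass. The 4 factors that passed were therefore all covered by about 200 or more RIP fragments, with folds under 2 for each of them other than DDIT3.

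XBP1, whose mRNA is spliced by IRE1, had a 3' UTR peak of 1.48-fold (1.22 to 1.78) over 110 fragments, with a −log10 q of 1.68. It missed the threshold of 0.01 and lay within 0.05. ATF3, a stress-induced factor downstream of ATF4, had a 3' UTR peak of 1.32-fold (1.08 to 1.59) over 107 fragments that did not pass. Both RNAs were well covered, with backgrounds of 74.1 for XBP1 and 80.9 for ATF3. The median fold over all peaks with a background of 50 or more was 1.71.

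All 4 targets and feedback genes that had a peak passed, of 6 listed. PPP1R15A encodes GADD34, which brings a phosphatase to eIF2 and restores translation. Its 3' UTR peak (chr19:48875808-48876162) had 4.08-fold (3.41 to 4.84), with 129 fragments over a background of 30.9 and a −log10 q of 34.4. A second, broad peak of 1388 bp in the body of the gene (chr19:48873716-48875103) had 1.32-fold (1.16 to 1.5), with 244 fragments over a background of 184. The intervals of these peaks were far apart, with more RIP fragments but still more background over the body of the gene than at its end. No peak in the list had more than 324 RIP fragments, which limits the fold that a background of 184 allows. TRIB3, a pseudokinase induced by ATF4 and CHOP, had 3.14-fold (2.71 to 3.61) over 192 fragments in its 3' UTR (chr20:397033-397748) and a −log10 q of 36.0.

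CHAC1, a glutathione-degrading enzyme induced by ATF4, had 3.44-fold (1.90 to 5.80) at chr15:40956134-40956636 on 12 fragments, with a −log10 q of 2.31. DDIT4 (REDD1), an inhibitor of mTORC1, had 1.61-fold (1.35 to 1.90) over 134 fragments at chr10:72275355-72275711. PPP1R15A, TRIB3 and CHAC1 had folds above 3 in peaks whose summits lay 132, 71 and 135 bp from the gene's 3' end, whereas the DDIT4 summit lay 591 bp from it. SESN2, an mTORC1 regulator, and ASNS, the asparagine synthetase, had no peak.

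Among 9 chaperones, 4 passed, with 10 peaks between them that all passed. CALR, the calcium-binding lectin chaperone calreticulin, had 3 peaks. That at the 3' end (chr19:12944301-12944638) had 3.73-fold (3.17 to 4.37) over 155 fragments and a −log10 q of 37.1. That farther upstream (chr19:12943776-12944127) had 1.52-fold (1.3 to 1.78) over 158 fragments, and that in the first part of the gene (chr19:12940312-12941161) had 2.13-fold (1.85 to 2.44) over 201. The interval of the peak at the end of CALR thus lay above those of both others, with the background held fixed. The peak in the first part also covered the microRNA gene MIR6515.

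HSP90B1, which encodes the ER chaperone GRP94, had 4 peaks. From 5' to 3' their folds were 2.49 (2.16 to 2.85) in exon 5 of 18, 1.83 (1.47 to 2.24) in exon 10, 1.84 (1.59 to 2.12) in exon 16 and 3.55 (2.77 to 4.49) in the 3' UTR. The exon 5 peak (chr12:103934193-103934532) rested on 201 fragments and had the highest −log10 q, 25.0. The 3' UTR peak (chr12:103947472-103948085) rested on 68 fragments over a background of 18.4, with a −log10 q of 15.0 and its summit 22 bp from the gene end. The interval of the 3' UTR peak was clear of those of exons 10 and 16 and overlapped that of exon 5.

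HSPA5 encodes BiP, the HSP70 of the ER that holds the sensors inactive in unstressed cells. It had 1.60-fold (1.39 to 1.82) in its 3' UTR (chr9:125236155-125236906), with 220 fragments over a background of 137. Near its start (chr9:125240487-125241082) it had 1.49-fold (1.26 to 1.74) over 154 fragments, and both peaks passed. CANX, the membrane lectin calnexin, had 1.78-fold (1.44 to 2.18) over 93 fragments at chr5:179730567-179731039. HSPA5 had the highest background of any best peak in the group, and its fold was lower than that of CALR or HSP90B1 with intervals apart.

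HYOU1, a large HSP70 of the ER, had an exon 17 peak of 1.27-fold (1.04 to 1.54) over 105 fragments. DNAJB9, a co-chaperone of BiP, had a 3' UTR peak of 1.36-fold (1.08 to 1.69) over 79. DNAJC3, another co-chaperone, had an intron peak on 2 fragments. None of these 3 passed. MANF and SDF2L1, small stress-induced lumenal proteins, had no peak.

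Of 4 disulfide isomerases, 3 passed. P4HB (PDI), a major thiol oxidoreductase of the ER, had 4 peaks, and the folds were higher toward the 3' end. From 5' to 3' they were 1.51 (1.23 to 1.84) in exon 3 of 11, 1.54 (1.28 to 1.85) in exon 6, 2.29 (1.93 to 2.70) in exon 9 and 2.81 (2.41 to 3.26) in the 3' UTR (chr17:81843005-81843379). Their backgrounds were alike, at 63.9, 74.7, 60.2 and 61.2, while the RIP fragments were 97, 116, 139 and 174. The interval of the 3' UTR peak overlapped that of exon 9 and was clear of those of exons 3 and 6. The exon 3 peak, with a −log10 q of 1.62, did not pass.

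PDIA3 (ERp57), which acts with calnexin and calreticulin on glycoproteins, had 2.50-fold (1.94 to 3.17) over 66 fragments in exon 12 of 13 (chr15:43770481-43770848). PDIA4 (ERp72) had 1.86-fold (1.63 to 2.13) over 220 fragments in its 3' UTR (chr7:149003623-149003989). An exon peak of PDIA4 had 1.24-fold (0.986 to 1.55), the lowest fold in the group, and did not pass. PDIA6, another isomerase, had no peak.

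All 8 genes of ER-associated degradation had a peak, and 4 passed. EDEM1, a lectin that marks misfolded glycoproteins for removal, had a 3' UTR peak of 3.28-fold (2.35 to 4.48) at chr3:5219486-5219972 on 38 fragments. A second 3' UTR peak farther from the gene end had 1.53-fold (1.10 to 2.07) on 40 fragments and did not pass. HERPUD1, a stress-induced scaffold of the degradation complex, had 3.18-fold (2.42 to 4.11) over 56 fragments in its 3' UTR (chr16:56943660-56944036), with a −log10 q of 10.3.

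VCP, the ATPase that pulls proteins out of the membrane, had 2.25-fold (1.87 to 2.67) over 125 fragments in exon 9 of 17 (chr9:35061770-35062103). The 3' UTR peak of VCP had 1.32-fold (1.10 to 1.57) over 127 fragments and did not pass. DERL2, a channel-forming derlin, had a 3' UTR peak of 2.10-fold (1.59 to 2.73) on 54 fragments at chr17:5474162-5474485 that passed and another of 2.01-fold (1.38 to 2.82) that did not. As in EIF2AK1, the peak of VCP inside the coding part stood above that in the 3' UTR with intervals apart.

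The remaining genes of this role did not pass. SEL1L, the adaptor of the HRD1 ligase, had an intron peak of 2.85-fold (1.54 to 4.91) on 11 fragments, and SYVN1, the ligase HRD1 itself, had 1.81-fold (1.27 to 2.51) on 34. EDEM3 had 1.88-fold (1.18 to 2.85) on 20 fragments. DERL1 had 1.59-fold (0.998 to 2.41) and 1.36-fold (1.05 to 1.73), both in its 3' UTR and both within the long non-coding gene LOC124902013. Apart from VCP, every best peak of this role rested on 56 or fewer fragments, so intervals were wide and a fold near 2 did not always pass.

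**Figure D2:**
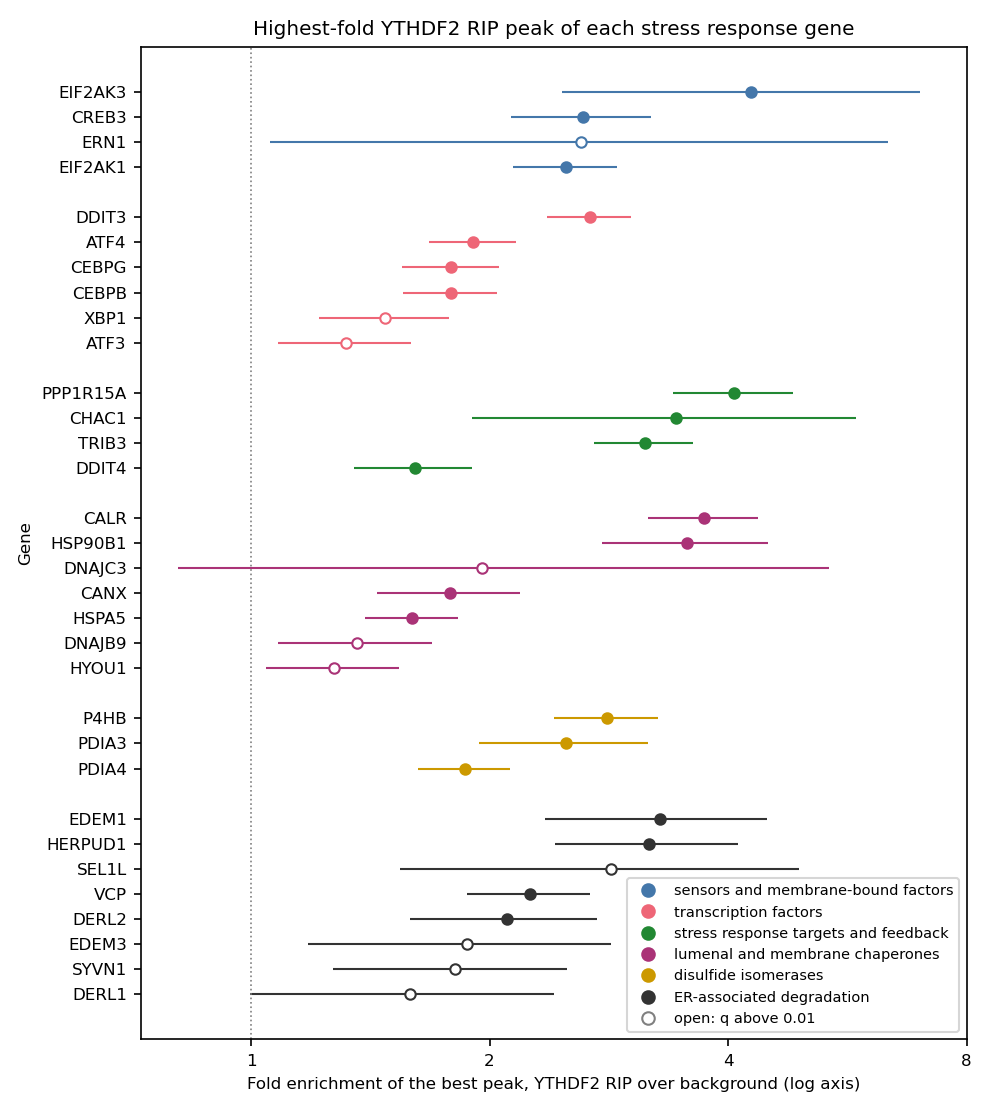
Fold enrichment of the highest-fold peak (horizontal, log axis) of each of the 32 genes with a peak, grouped and coloured by role, with exact Poisson 95% intervals as bars and open circles for a q above 0.01. EIF2AK3 is highest at 4.28 with a wide interval, PPP1R15A, CALR and HSP90B1 follow with narrower ones, and HYOU1 is lowest at 1.27.

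By role, the median best-peak fold was 3.29 for the targets and feedback genes, 2.62 for the sensors, 2.50 for the disulfide isomerases and 2.18 for ER-associated degradation. It was 1.79 for the transcription factors and 1.78 for the chaperones. These medians rest on 3 to 8 genes each, the ranges of the roles overlapped, and no test was made between them. The 8 best peaks of at least 3-fold (EIF2AK3, PPP1R15A, TRIB3, CHAC1, CALR, HSP90B1, EDEM1 and HERPUD1) had backgrounds of 2.51 to 60.5. At the other end of the scale, the 8 peaks of the group with 200 or more fragments had no fold above 2.67. Over the whole list no peak of that depth was above 3.83. No peak in the list had more than 324 RIP fragments, which limits the fold that a high background allows.

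The next question was where in the transcripts the peaks lay. Of the 51 peaks, 21 were of the 3' UTR class, or 41.2% (95% Clopper-Pearson interval 27.6 to 55.8, counting error only), against 33.0% of peaks in all protein-coding genes. Exons held 14 (27.5%, 15.9 to 41.7, against 23.3%), and the promoter class 14 as well, against 18.1%. Introns held 2 (3.92%, 0.478 to 13.5), those of SEL1L and DNAJC3, against 22.9%. None was of the 5' UTR class. The promoter class follows the nearest start site of any gene: 4 of its 14 peaks, in CALR, ATF4, DDIT3 and CHAC1, had their summit within 500 bp of the 3' end of the gene that held them.

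**Figure D3:**
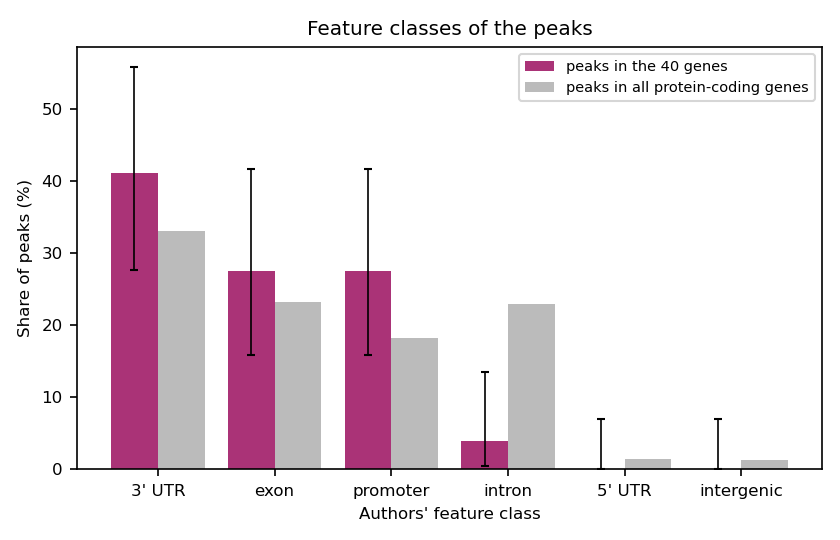
Share of peaks (vertical, %) in each of the authors' feature classes for the 51 peaks of the stress response genes (purple, bars are Clopper-Pearson 95% intervals) and for the peaks of all protein-coding genes (grey); the downstream class, under 1% of all peaks, is left out. The 3' UTR is the largest class in both, and introns hold 3.92% of the group's peaks against 22.9%.

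Distance to the gene's 3' end could be taken for 50 of the 51 peaks. The summit lay within 500 bp of it in 11 peaks (22%, against 17.5% for protein-coding genes), of which 10 passed, against 64.3% of such peaks in protein-coding genes. Their folds ran from 1.40 to 4.08 with a median of 3.14, over a median background of 40.8. The 39 peaks farther away had a median of 1.79 (1.24 to 4.28) over a background of 62.5, and 22 of them passed, against 35.5%. In all protein-coding genes the medians near and far were 2.39 and 2.38, over backgrounds of 19.7 and 3.64. The higher folds near the end in the stress response genes were seen in CREB3, DDIT3, PPP1R15A, TRIB3, CHAC1, HSP90B1, CALR, P4HB and EDEM1, while ATF4 and the outer peak of CEBPG had folds under 2.

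Within genes, 13 of the 32 held more than 1 peak. In 9 of them the peak nearest the 3' end had the highest fold. Of genes with 2 peaks this was so in 6 of 9, against 47.4% of 1563 protein-coding genes with 2 peaks, and of genes with more in 3 of 4, against 26.2% of 1147. With the background held fixed, the end peak's interval lay above that of the best other peak in PPP1R15A, CALR, PDIA4 and EDEM1. It lay below in EIF2AK1 and VCP. Over all 2710 protein-coding genes with more than 1 peak it lay above in 166 and below in 194. Counting error of the background was left out and would widen these intervals. In the other 7 genes the intervals overlapped. The background was lower at the end peak in 6 of the 9 genes and the RIP fragments were also fewer in 5 of them, PPP1R15A, HSP90B1, CALR, DERL1 and EDEM1. In those 5 the higher fold went with a larger drop in the background than in RIP. The part of coverage at transcript ends, or of the kind of background, in this was not tested. In P4HB, PDIA4, HSPA5 and CREB3 the RIP fragments themselves were more at the end peak.

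**Figure D4:**
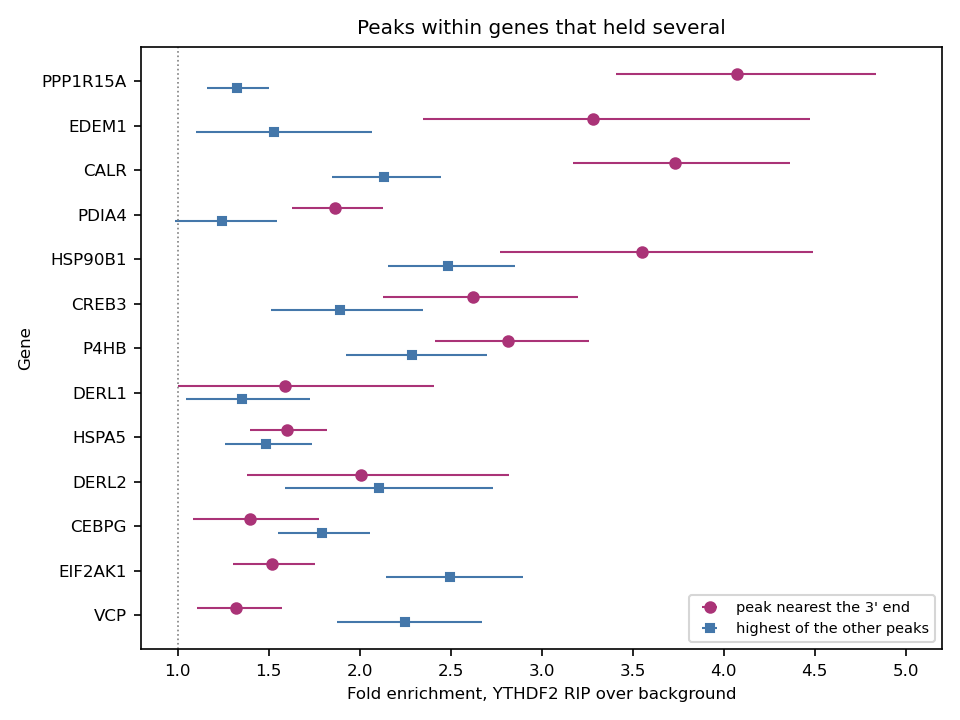
Fold enrichment (horizontal) of the peak nearest the 3' end (circles) and of the highest other peak (squares) in the 13 genes with more than 1 peak, ordered by their ratio, with exact Poisson 95% intervals. PPP1R15A at the top has 4.08 against 1.32, and VCP at the bottom has 1.32 against 2.25.

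Other genes of the pathway were counted in the same way, 98 of them in 6 subgroups. Of these, 56 had a peak and 33 (58.9% of the 56) had one that passed, against 53.2% of protein-coding genes with a peak. Their median best-peak fold was 2.30. The subgroup counts that follow are over all listed genes, with or without a peak, and stand beside the 18.4% of all protein-coding genes. Among eIF2, its exchange factor, kinases and phosphatase subunits, 8 of 16 genes passed. EIF2B3, a subunit of the exchange factor eIF2B, had 4.57-fold (2.73 to 7.26) on 16 fragments. DELE1, which relays mitochondrial stress to HRI, had 3.54-fold (2.15 to 5.56) on 17, and EIF2B1 had 2.85-fold (2.20 to 3.65) on 62. The eIF2 alpha subunit EIF2S1, the substrate of the kinases, had 1.46-fold on 51 fragments and did not pass.

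Of 14 genes that process or pass on the sensors' signal, 6 passed. BFAR, an ER-membrane apoptosis regulator, had 8.72-fold (5.12 to 14) on 15 fragments. MAP3K5 (ASK1), a kinase downstream of IRE1, had 4.40-fold (2.32 to 7.76) on 10, and MBTPS2, a protease that releases ATF6, had 3.95-fold (2.14 to 6.80) on 11. These high folds all came with few fragments. Of 18 genes of ER folding and oxidation 3 passed: ERO1A, the oxidase that recharges PDI, with 3.0-fold (1.89 to 4.56), TXNDC5 with 1.90-fold (1.53 to 2.33) and the glucosidase subunit GANAB with 1.66-fold (1.35 to 2.02).

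Of 14 further genes of ER-associated degradation, 7 passed. They included the lectin ERLEC1 with 3.22-fold (2.52 to 4.05), the VCP cofactor NPLOC4 with 2.91-fold (2.26 to 3.69) and the conjugating enzyme UBE2J1 with 2.75-fold (2.15 to 3.47). Of 14 genes of translocation and signal peptide cleavage, 4 passed. The translocon-associated SSR2 had 2.76-fold (2.30 to 3.29), SSR4 2.75-fold (2.21 to 3.39) and the signal peptidase subunit SPCS1 2.67-fold (2.11 to 3.33). Of 22 targets of ATF4 and CHOP, 5 passed, among them the arginine transporter SLC7A1 with 4.99-fold (2.76 to 8.43) on 12 fragments, NARS1 with 2.60-fold (2.10 to 3.19) and the cell death gene BCL2L11 with 2.42-fold (1.83 to 3.14).

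**Figure D5:**
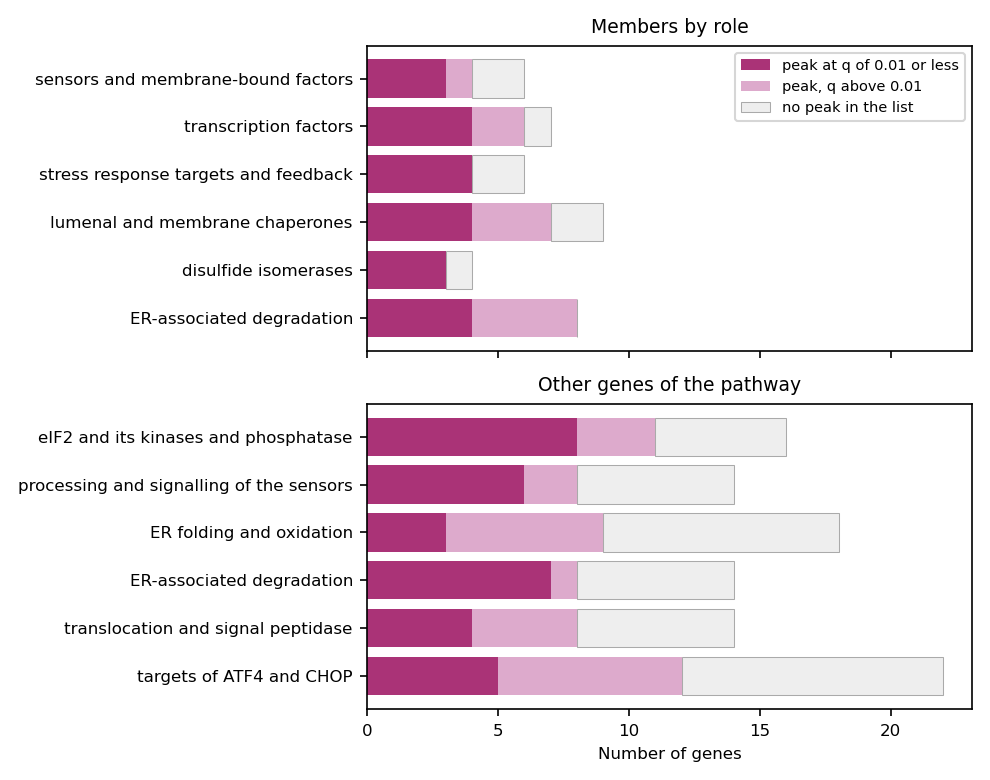
Number of genes (horizontal) with a peak at a q of 0.01 or less (dark), with peaks above that q only (light) and without a peak (grey), for the 6 roles of the 40 genes (top) and for 6 subgroups of 98 other pathway genes (bottom). All 8 listed genes of ER-associated degradation had a peak and 4 passed, and of 18 further ER folding genes 3 passed.

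As a check of the labelled cell type, 2 of 10 hepatocyte markers had a peak, APOB and HNF4A, and neither passed, while of 4 epithelial markers the keratins KRT8 and KRT18 passed and EPCAM and CDH1 had no peak. Of 14 endothelial, stromal, macrophage and blood markers, PECAM1, LUM, CD68 and HBB had a peak, and only HBB passed, on 8 fragments. Peaks are no measure of expression, so the absence of a peak for the other hepatocyte and epithelial markers gives no level for them.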

How the data were processed

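The labels describe 2 YTHDF2 RIP and 2 input libraries, prepared with the Magna RIP kit and sequenced from stranded total RNA libraries for low input. The submitters' processing notes name HISAT2, MACS2 and hg38. Versions, thresholds and the way the libraries were combined are not given in these sources, and no label ties a replicate to a culture of its own. Per the file headers, the authors deposited for each peak a fold enrichment (a linear ratio), a −log10 p-value, a −log10 q-value and a score equal to 10 times the −log10 p. Coordinates are 1-based hg38.

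The fold equals (k + 1) / (background + 1) and p the Poisson tail above k, and both together gave a whole number k for every peak with −log10 p met within 0.000189. The recovery and the intervals were tested on simulated data. Gene names and spans came from the RefSeq table of GRCh38.p14. Where several genes held a summit, protein-coding genes were preferred, followed by the gene named in the file and by shorter genes. Strand came from the RefSeq promoter table, the deposited gene or the end nearer a 3' UTR peak. All members were named; of the wider pathway, up to 3 genes per subgroup with the highest passing fold, and EIF2S1, which was added after its values were seen. The members and lists were chosen with earlier results of these data known. No test was made across genes; alternatives covered q, fold, class, contig and gene assignment. Protein ends and peak sequences were not analysed here. Python 3.11.15, numpy 2.4.6, pandas 2.3.3 and scipy 1.17.1 were used.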

Additional observations from a re-analysis of the deposited data

How the results depend on the processing

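Of the 32 genes with a peak, 17 kept one when a −log10 q of 5 or more was asked and 17 when a fold of 2 or more was asked. With the gene deposited beside each peak it was 18, and the number with a peak at a q of 0.01 or less was 9 against 22. The median best-peak log2 fold was 1.51 at a fold of at least 2, a filter on the compared value itself, against 1.12. The other alternatives kept counts within 1.5 times and the median and the 3' UTR share within their intervals. These included a q of 0.05 or less (23 genes), main chromosomes only, any overlap with the gene, and exon and UTR classes only. They also included 2 filters on fragments and background added after seeing the data. Exon and UTR classes only left 22 genes with a peak and 15 that passed. At a background of 50 or more the median log2 fold was 0.841, at the lower limit of its interval (0.841 to 1.49). With any overlap the 3' UTR peak of EIF2AK1 went to AIMP2. By highest −log10 q in place of fold, 31 of 32 genes stayed within their interval, and HSP90B1 moved to 2.49-fold. No paired analysis was possible because the list holds no value per library, and no replicate could be left out. Depth is unknown, and peaks of few fragments limit CHAC1, EIF2AK3, ERN1, SEL1L and DNAJC3 most.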

Other observations

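Many peaks of this group were deposited with another gene, as in the list at large. The deposited gene number was that of the gene holding the summit in 41.2% of the 51 peaks, against 54.9% of all peaks that lay in a gene. The other 30 peaks, 23 of them among the 33 that passed, carried the number of another gene, and for 9 of these the file gave no symbol. For 15 of the 32 genes no peak carried the gene's own number. The TRIB3 peak was listed under RBCK1, the DDIT3 peak under MIR616, the 3' UTR peak of HSP90B1 under UQCC6 and 3 of the 4 P4HB peaks under PPP1R27. A search of the list by symbol would find P4HB at 1.51-fold and PDIA4 at 1.24-fold, against 2.81-fold and 1.86-fold by the gene that holds the peak.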
